A study of Mus musculus with 12 samples.

Results

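The 44574 chromatin regions described here were called accessible in the libraries labelled MDM and in none of the other 3 groups of the study. They made up 37.8% of the 117835 regions in the deposited table of ATAC-seq counts, an assay in which the Tn5 transposase cuts and tags DNA where chromatin is open. Members were chosen by the name of each region, which lists the groups whose peak calls were merged into it. All 44574 names carried an MDM peak call and no call from LL-MDM, LL-MG or MG. These names come from the same reads as the counts, so the height of MDM over the other groups is what chose the members and is given as a description.

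The table holds 12 libraries in 4 groups of 3, from macrophages sorted out of mouse brain tumours. LL-MDM are lipid-laden monocyte-derived macrophages and LL-MG are lipid-laden microglia. MDM are monocyte-derived macrophages that are not lipid-laden, and MG are microglia that are not lipid-laden. All 4 groups carry the genotype Ink4a/ArfKO, PDGFB, a glioma model in which platelet-derived growth factor B is expressed in Nestin-positive progenitor cells. The groups follow the column names of the table, which equal the sample descriptions. The sample titles give the same group for 4 libraries and another group for 8. No label ties a column to a mouse, so p-values measure only the spread between these libraries. The numbers in the column names run through the 4 groups in turn, and this order was not used in the fits.

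Macrophages share a set of open promoters and differ mostly in enhancers, short stretches of open DNA away from gene starts. Lineage factors such as PU.1 hold macrophage enhancers open together with partners such as AP-1, C/EBP, RUNX and IRF proteins. Microglia come from yolk sac progenitors and use the regulator Sall1, while monocytes that enter a tumour can acquire macrophage or dendritic cell features, including MHC class II genes for antigen presentation. At Sall1, the counts summed over its 5 regions, none of them a member, were 6.51 to 12.4 CPM in LL-MDM, 67.4 to 87.5 in LL-MG, 0.513 to 1.09 in MDM and 47.9 to 77.8 in MG. At Itga4, an integrin gene used by monocytes, 4 of the 6 regions were members, so the rule shaped the MDM level there. All 6 regions together held 82.2 to 88.6 CPM in LL-MDM, 42.5 to 58.4 in LL-MG, 114 to 139 in MDM and 41.9 to 61.6 in MG. CPM, or counts-per-million, are scaled by the trimmed mean of M-values (TMM) throughout.

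MDM-only regions at the promoters of immune genes are shown first, because their letters can be read from a promoter table. Of the 329 genes on 22 lists of pathways and cell types, 21 had an MDM-only region in the window from 250 bases before to 50 after a start, and 14 of these regions had enough counts to be tested. The 8 with the highest MDM level follow, as RefSeq sequence of GRCm38.p6, the build of mm10, written 5′ to 3′ on the strand of the gene. Each is cut to the bases of the region that lie within 250 bases before the start. At Tnfaip3 and Ccl17 the region reaches farther upstream than the stretch shown. Capitals mark a match to one of 8 motifs described after the sequences. The files do not say whether region starts count from 0 or 1, so an edge may be off by 1 base.

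The first pair belongs to MHC class II processing. H2-DMb2 encodes a chain of the H2-M peptide editor, and its region at chr17:34145010-34145277 (plus strand) reaches across the start. H2-Oa encodes a chain of H2-O, which restrains H2-M, and its region lies at chr17:34092283-34092399 (plus strand).
H2-DMb2: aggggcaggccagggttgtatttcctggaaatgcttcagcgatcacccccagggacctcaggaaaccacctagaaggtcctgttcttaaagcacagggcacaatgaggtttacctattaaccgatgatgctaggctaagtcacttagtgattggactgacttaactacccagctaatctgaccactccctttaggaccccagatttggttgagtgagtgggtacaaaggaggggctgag
H2-Oa: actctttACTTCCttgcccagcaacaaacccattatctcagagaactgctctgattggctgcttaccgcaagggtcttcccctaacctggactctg
The next pair encodes signals that recruit or inflame. Ccl17, a dendritic cell chemokine, has its region at chr8:94810107-94810323 (plus strand), and the cytokine gene Il1b has its region at chr2:129370945-129371268 (minus strand).
Ccl17: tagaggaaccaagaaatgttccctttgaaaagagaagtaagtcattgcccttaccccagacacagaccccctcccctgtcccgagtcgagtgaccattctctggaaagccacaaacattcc
Il1b: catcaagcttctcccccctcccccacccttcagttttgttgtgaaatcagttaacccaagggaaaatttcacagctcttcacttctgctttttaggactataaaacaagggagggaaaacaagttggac
Tnfaip3 encodes the NF-kB inhibitor A20, with a region at chr10:19012036-19012300 (minus strand). Isg15 encodes an interferon-induced ubiquitin-like protein, with a region at chr4:156200774-156200927 (minus strand).
Tnfaip3: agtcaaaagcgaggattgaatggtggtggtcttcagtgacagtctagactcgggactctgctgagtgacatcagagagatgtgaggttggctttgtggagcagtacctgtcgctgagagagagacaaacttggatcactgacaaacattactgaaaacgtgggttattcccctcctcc
Isg15: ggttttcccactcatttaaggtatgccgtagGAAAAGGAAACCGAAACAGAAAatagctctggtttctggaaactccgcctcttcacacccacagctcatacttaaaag
Itgb7 encodes an integrin chain that pairs with Itga4, with a region at chr15:102231870-102232015 (minus strand). Kit encodes the stem cell factor receptor of mast cells and progenitors, with a region at chr5:75574850-75575212 (plus strand).
Itgb7: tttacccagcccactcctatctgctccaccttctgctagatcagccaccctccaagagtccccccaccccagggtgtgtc
Kit: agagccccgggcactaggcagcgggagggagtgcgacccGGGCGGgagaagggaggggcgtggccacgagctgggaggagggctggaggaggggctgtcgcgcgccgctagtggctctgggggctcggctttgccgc

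The Isg15 stretch held 3 overlapping matches to the interferon-stimulated response element (ISRE), H2-Oa held 1 match to the PU.1 core and Kit held 1 match to the SP and KLF motif. The other 5 stretches held no match to the 8 motifs searched. Across the genome, 1113 promoter windows overlapped an MDM-only region, of 32619 windows in all, and 10907 windows overlapped a region called in all 4 groups. The motifs were searched on both strands in the whole 300-base windows. The PU.1 core GGAAGT was in 29.1% of windows with an MDM-only region, 30.7% of windows with a region of all 4 groups and 23.9% of all windows. The AP-1 motif TGANTCA was in 8.81%, 5.08% and 7.85% of these windows in the same order, and the RUNX motif TGTGGTT in 7.19%, 3.61% and 5.29%. The NF-kB motif GGGANNTCC was in 6.38%, 5.79% and 4.33%, and the C/EBP motif TTGCNNAA in 10.2%, 7.65% and 10.9%. ISRE was in 4.04%, 2.82% and 3.46%, and the MEF2 motif in 4.22%, 2.68% and 3.71%. The SP and KLF motif CCGCCC was in 43.7%, 67.8% and 35.9%. The median GC content of these windows was 54.7%, 62.0% and 53.0%. Of the windows with an MDM-only region, 357 also held another region. In the 756 windows with MDM-only regions alone, the PU.1 core was in 31.6%, AP-1 in 11.2%, RUNX in 8.47% and NF-kB in 7.14%. There C/EBP was in 10.4%, ISRE in 4.76%, MEF2 in 4.23% and the SP and KLF motif in 37.0%. Their median GC content was 53.0%, and both this and the SP and KLF share were near those of all windows.

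At the H2-DMb2 promoter the region held 4.43, 1.95 and 1.71 CPM in LL-MDM libraries, 0, 1.41 and 1.81 in LL-MG, 9.57, 12.4 and 12.8 in MDM, and 0.741, 0.858 and 0 in MG. The MDM libraries were the highest, and the LL-MDM and MG libraries did not overlap. Counts were few outside MDM, with 5, 14 and 5 in LL-MDM and 2, 5 and 0 in MG, against 131, 229 and 75 in MDM. It was higher in LL-MDM than in MG by a log2 fold change of 1.94 ± 0.63 (SE), with an edgeR adjusted p of 0.022, but the call was lost without LL-MDM replicate 1, LL-MDM replicate 2 or MG replicate 3 (edgeR adjusted p = 0.058 to 0.103). The H2-Oa promoter region held 0.886, 1.53 and 2.05 CPM in LL-MDM libraries, 2.26, 2.35 and 1.81 in LL-MG, 5.19, 5.65 and 3.93 in MDM, and 3.34, 4.63 and 2.68 in MG. Here LL-MDM lay below MG, with a log2 fold change of -1.18 ± 0.40 (edgeR adjusted p = 0.026). This call was lost with DESeq2 (adjusted p = 0.106) and without LL-MDM replicate 1, LL-MDM replicate 2 or MG replicate 2 (edgeR adjusted p = 0.056 to 0.200). Itgb7 held 2.66, 5.42 and 5.48 CPM in LL-MDM libraries, 0.905, 2.35 and 1.09 in LL-MG, 8.40, 6.03 and 9.23 in MDM, and 1.11, 5.15 and 2.20 in MG. Its region was higher in LL-MDM than in LL-MG by 1.82 ± 0.52 (edgeR adjusted p = 0.010), with no overlap between their libraries. Without LL-MDM replicate 2, LL-MG replicate 1 or LL-MG replicate 3 the edgeR adjusted p was 0.074 to 0.088.

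The Isg15 promoter region was not highest in MDM, whose libraries held 9.06, 8.80 and 8.89 CPM. LL-MDM libraries held 4.43, 6.68 and 6.51, LL-MG libraries 16.3, 8.93 and 6.17, and MG libraries 7.78, 6.17 and 8.78 CPM. LL-MG replicate 1 was the highest of the 12, and none of the 3 comparisons among LL-MDM, LL-MG and MG passed the test. The Il1b promoter region held 13.3, 8.21 and 6.51 CPM in LL-MDM libraries, 6.79, 4.23 and 5.44 in LL-MG, 22.1, 17.5 and 17.3 in MDM, and 2.97, 12.3 and 9.27 in MG. Here MG replicate 1 lay far below MG replicates 2 and 3. The Kit promoter region held 5.32, 2.09 and 3.08 CPM in LL-MDM libraries, 0, 2.35 and 0.726 in LL-MG, 14.1, 10.9 and 11.5 in MDM, and 2.22, 7.55 and 2.68 in MG. It was lower in LL-MG than in MG, with a log2 fold change of -2.19 ± 0.67 (edgeR adjusted p = 0.040), with MG replicate 2 the highest outside MDM. Without MG replicate 2, LL-MG replicate 1 or LL-MG replicate 3 the call was lost (edgeR adjusted p = 0.134 to 0.292), and the log2 fold change without MG replicate 2 was -1.30. Without MG replicates 2 and 3 together the calls at H2-DMb2, H2-Oa and Kit were lost (edgeR adjusted p = 0.286 to 0.762). Tnfaip3 at 16.2 to 22.4 CPM and Ccl17 at 4.10 to 7.74 CPM were the remaining promoters by their MDM ranges, with MG at 13.2 to 17.3 CPM for Tnfaip3 and 0.732 to 2.59 CPM for Ccl17.

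The MDM libraries were the deepest, and the part of depth in the number of MDM calls was not tested. The counts over all regions summed to 11603549 in LL-MDM, 7183102 in LL-MG, 39495852 in MDM and 14025505 in MG, and single libraries ranged from 1162969 to 18938222 counts. Of the regions with a call, 1081 of 50422 in LL-MDM (2.14%) carried no call of another group, 1682 of 42698 in LL-MG (3.94%), 44574 of 105173 in MDM (42.4%) and 6556 of 61019 in MG (10.7%). The MDM-only regions took 8.35%, 8.43% and 8.07% of the counts in LL-MDM, 6.98%, 7.11% and 7.63% in LL-MG, 12.5%, 12.3% and 10.9% in MDM, and 7.11%, 6.80% and 6.58% in MG. These shares were higher in each MDM library than in the other 9. After thinning each library to the lowest total count, the group means were 8.28% in LL-MDM, 7.24% in LL-MG, 11.9% in MDM and 6.83% in MG. They were the same to 3 digits as before thinning. Thinning removed counts at the same rate in all regions of a library, so the procedure itself kept these shares nearly unchanged. The part of depth in these shares was therefore not tested by it.

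Before thinning, 74.7%, 98.4% and 92.7% of MDM-only regions held at least 1 count in LL-MDM, 79.4%, 78.5% and 86.0% in LL-MG, over 99% in each MDM library, and 84.5%, 95.9% and 90.2% in MG. At equal totals the shares were 74.7%, 74.1% and 74.2% in LL-MDM, 64.6%, 64.6% and 68.1% in LL-MG, 85.1%, 84.7% and 78.9% in MDM, and 65.8%, 65.1% and 63.8% in MG. So most MDM-only regions held reads in every group, and 13 of 44574 held none in all 9 libraries outside MDM. The median region held 10 to 37 counts in the MDM libraries, against 1 to 10 in LL-MDM, 2 to 3 in LL-MG and 3 to 7 in MG.

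**Figure D1:**
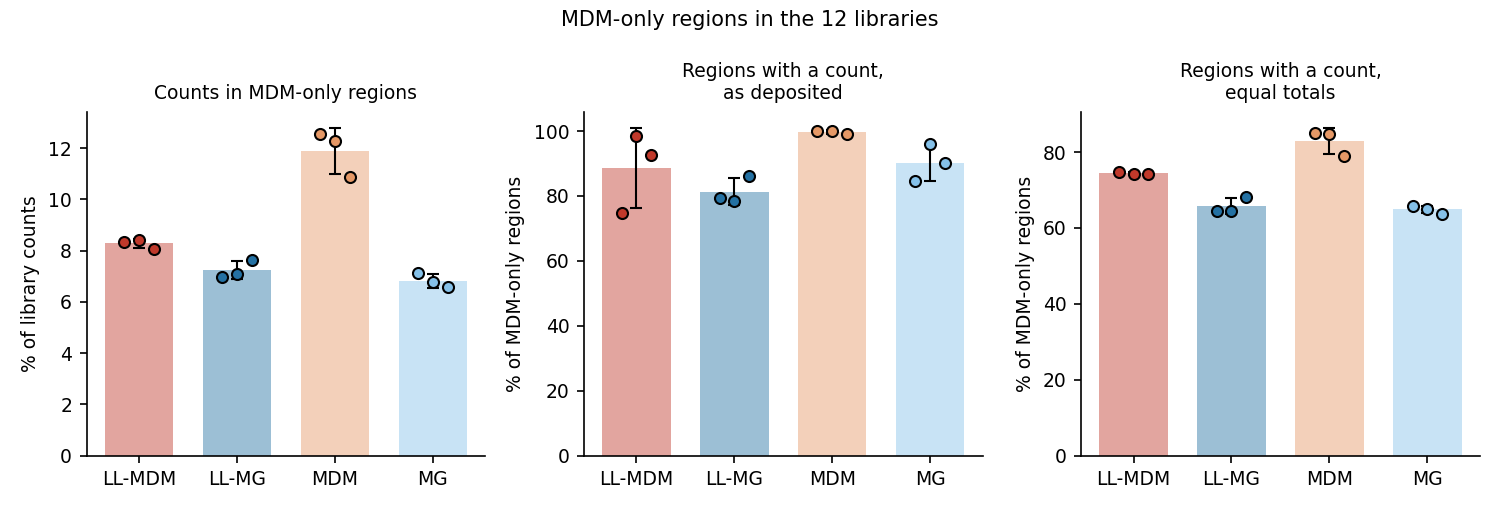
Share of each library's counts that fell in MDM-only regions (left), share of MDM-only regions with at least 1 count as deposited (middle), and the same share at equal totals (right), all in percent; points are the 3 libraries of a group, bars their mean and whiskers 1 SD. MDM libraries sat between 10.9% and 12.5% of counts on the left, above the other 9 libraries, and between 78.9% and 85.1% on the right.

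The name of the set did not mean that a region was open in MDM alone. The median of the group mean was 1.38 CPM in LL-MDM, 1.04 in LL-MG, 1.90 in MDM and 1.081 in MG. MDM had the highest mean in 25640 regions (57.5%), LL-MDM in 7500, LL-MG in 6424 and MG in 5010. In 9573 regions (21.5%) all 3 MDM libraries lay above the other 9, and in 9081 the MDM mean was at least 2 times each other group mean. All 3 MDM libraries also lay above the other 9 in 17.7% of regions called in both MDM groups only, and in 8.01% of regions called in all 4 groups. In 245 regions all 3 MDM libraries lay below the other 9. The same held for 89 of 7304 regions called in both MDM groups only and 4818 of 32545 called in all 4 groups. The regions just outside the rule, the 7304 called in both LL-MDM and MDM but in no microglial group, had medians of 3.99 CPM in LL-MDM, 1.85 in LL-MG, 3.74 in MDM and 1.73 in MG.

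MDM-only regions were narrow and lay farther from gene starts than regions of all 4 groups. Their median width was 118 bp (quartiles 85 and 168), against 199 bp for regions of both MDM groups, 387 bp for regions of all 4 groups and 93 bp for the 6556 regions called in MG only. Promoter windows held 2.42% of MDM-only regions, 2.72% of regions of both MDM groups, 3.96% of regions called in MG only and 26.7% of regions of all 4 groups. The median distance to a start was 15962 bp for MDM-only regions, 19147.5 bp for regions of both MDM groups, 18424 bp for regions called in MG only and 8662.5 bp for regions of all 4 groups, so regions of few groups shared this trait. Of MDM-only regions and regions of all 4 groups, 55.1% against 68.0% lay in the span of a protein-coding gene. The call itself used the reads in these stretches, so width and place are given as descriptions. The share of regions that were MDM-only ran from 35.6% on chromosome 8 to 42.7% on chromosome X. A non-member region lay within 1 kb of 30.5% of MDM-only regions, most often one of all 4 groups (7408), followed by a mixed combination (4118), both MDM groups (1461) and MG only (614).

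The contrasts among LL-MDM, LL-MG and MG were tested, because the rule asked only that a region be uncalled in each of them. The test was edgeR's quasi-likelihood test over 77737 regions that passed a low-count filter, with Benjamini-Hochberg adjustment and a threshold of 0.05. Of the MDM-only regions 15936 (35.8%) passed that filter, against 84.4% of other regions. Many passed through their MDM counts, so the numbers below describe these 15936 and not the 28638 under the filter. In bulk libraries, fewer cells of a type and less open chromatin per cell cannot be told apart.

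LL-MDM was called above LL-MG more often than below it at MDM-only regions, by a ratio that depended on how regions were filtered. Of the 15936 tested, 1825 (11.5%) were higher in LL-MDM and 322 (2.02%) were lower, against 11.2% called higher and 10.3% called lower among all 77737 regions tested. The share called higher was therefore near that of all regions, and the share called lower was below it. The median log2 fold change was 0.21 over MDM-only regions and 0.03 over all regions tested. When regions were filtered and fitted on LL-MDM and LL-MG alone, so that MDM counts let none through, 4482 MDM-only regions were tested. Of these 574 (12.8%) were higher and 278 (6.20%) lower, against 16.5% called higher and 16.6% called lower over the 51626 regions of that fit. The median log2 fold change was then 0.02. LL-MDM replicate 2 held most of the LL-MDM counts, and without it 911 were higher and 114 lower. Without LL-MDM replicate 3, LL-MG replicate 1 or LL-MG replicate 2, the regions lower in LL-MDM numbered 190, 206 and 213.

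LL-MDM against MG gave a similar picture, and these values share the LL-MDM libraries with the preceding ones. At 2220 MDM-only regions (13.9%) LL-MDM was higher and at 482 (3.02%) it was lower, against 14% called higher and 12.9% called lower over all regions tested. The median log2 fold change was 0.20, against -0.04 over all regions tested. In the fit of LL-MDM and MG alone, 817 of 8169 (10.0%) were higher and 120 (1.47%) lower, against 10.9% called higher and 8.02% called lower over all regions of that fit. Without LL-MDM replicate 2, 958 were higher and 150 lower, and without LL-MDM replicate 3, 234 were lower. Without MG replicate 1, 3374 were higher and 991 lower. Without MG replicate 2, 220 were lower, and without MG replicates 2 and 3 together 974 were higher and 211 lower.

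Between the microglial groups fewer MDM-only regions were called, with a lean to lower in LL-MG that the fit of both groups alone did not show. LL-MG was higher than MG at 206 MDM-only regions (1.29%) and lower at 489 (3.07%), against 4.21% called higher and 8.01% called lower over all regions tested. The median log2 fold change was -0.01, against 0.00 over all regions tested. In the fit of LL-MG and MG alone, 20 of 4858 (0.412%) were higher and 23 (0.473%) lower, against 1.43% called higher and 2.08% called lower over all regions of that fit. MG replicates 2 and 3 stood apart from MG replicate 1: regions called in MG only took 3.51% and 2.47% of their counts, against 1.42% in MG replicate 1. Without MG replicates 2 and 3, 1 region was higher and 1 lower in LL-MG, the remaining MG library being assumed to vary like the other groups. Without MG replicate 1, 826 were higher and 1344 lower, and without any 1 of the other 5 libraries 41 to 106 were higher and 81 to 414 lower.

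The number of calls in these 3 comparisons also depended on depth and on the model. At equal totals of the smallest library, LL-MDM was higher at 139 and lower at 21 against LL-MG, and higher at 123 and lower at 14 against MG, while LL-MG was higher at 13 and lower at 17 against MG. DESeq2 called 982 and 158, 1361 and 173, and 86 and 152 in the same order. With groups taken from the sample titles, edgeR called no region between LL-MDM and LL-MG (266 had an unadjusted p under 0.05), LL-MDM was higher than MG at 37 and lower at 1282, and LL-MG was higher than MG at 44 and lower at 1253.

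The 2 contrasts with MDM are descriptions, since the MDM call chose the members. LL-MDM was called higher than MDM at 306 MDM-only regions (1.92%) and lower at 5144 (32.3%), with 15.4% called higher and 14.1% called lower over all regions tested. MDM was called higher than MG at 7521 (47.2%) and lower at 844 (5.30%), with 24.9% called higher and 26.8% called lower over all regions tested. Leaving out LL-MDM replicate 2 gave 66 higher and 2923 lower than MDM, and leaving out any 1 other library gave 90 to 253 higher. For MDM against MG, 338, 396, 474 and 504 were called lower without MDM replicates 2, 1 and 3 and MG replicate 2, and 367 without MG replicates 2 and 3. The median log2 fold change was -0.44 for LL-MDM against MDM and 0.66 for MDM against MG. On the first principal component of the tested MDM-only regions, which carried 53.4% of the variance, MDM libraries sat at -117 to -113, LL-MDM at -15.9 to -7.38, MG at 34.9 to 61.8 and LL-MG at 64.1 to 82.7. The second component (12.4%) placed the shallowest library, LL-MDM replicate 1, apart at 110.0.

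**Figure D2:**
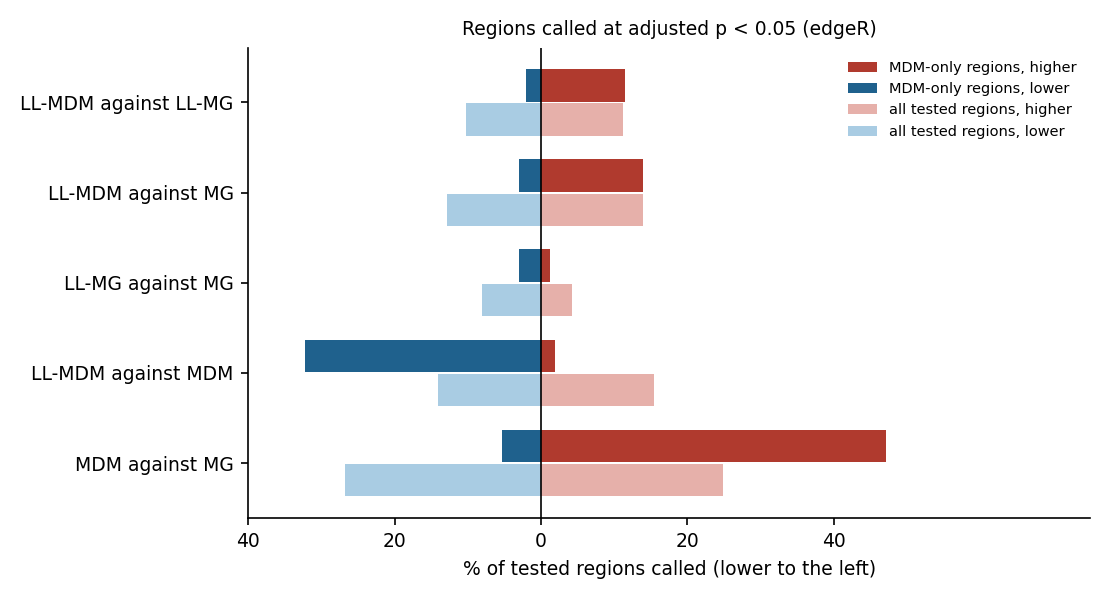
Percentage of tested regions called higher (to the right of 0) or lower (to the left) in each of 5 comparisons, for the 15936 tested MDM-only regions (dark) and all 77737 tested regions (light). In both upper comparisons the bars to the right are of like length for both sets, 11.5% against 11.2% and 13.9% against 14%, and the dark bars to the left are short.

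The share of regions higher in LL-MDM was lower near gene starts, both for MDM-only regions and for all regions tested. Within 1 kb of a start, 132 of 3007 tested MDM-only regions (4.39%) were higher in LL-MDM than in LL-MG and 68 (2.26%) lower. Between 1 and 10 kb, 543 of 4939 (11.0%) were higher and 87 (1.76%) lower, and beyond 10 kb 1089 of 7545 (14.4%) were higher and 155 (2.05%) lower. Over all regions tested the shares higher were 4.89%, 11.2% and 13.8% in these 3 distance classes, and the shares lower 7.33%, 9.60% and 11.7%. Against MG the shares higher in LL-MDM were 4.66%, 14.3% and 17.4% in the same order, against 4.69%, 15% and 17.5% of all regions tested. The shares lower were 5.19%, 2.55% and 2.45%, against 17.1%, 11.1% and 11.9% of all regions tested. Within 1 kb of a start more MDM-only regions were lower (156) than higher (140). In LL-MG against MG, the share of MDM-only regions called higher was 0.565%, 1.64% and 1.39%, and the share called lower 2.93%, 2.96% and 3.23%. Both were below the shares of all regions tested, which were 1.48%, 4.83% and 5.07% higher and 11.8%, 6.91% and 6.93% lower.

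The calls also varied with the region beside a member. Beside a region of both MDM groups, 174 of 593 tested MDM-only regions (29.3%) were higher in LL-MDM than in LL-MG and 4 lower. Beside a region of all 4 groups, 268 of 5101 (5.25%) were higher and 106 lower. With no region of another set within 1 kb, though other MDM-only regions may lie there, 1215 of 8159 (14.9%) were higher and 129 (1.58%) lower. Of all regions tested in the same positions, 28.8%, 6.15% and 12.9% were higher in that order, and 3.10%, 7.94% and 9.63% lower. The shares higher thus varied with position in a like way for all regions. The neighbours of the first kind had themselves been called in LL-MDM and not in LL-MG, so this split is a description. Over 7543 MDM-only regions with a tested neighbour within 1 kb, the log2 fold changes of LL-MDM against LL-MG in region and neighbour had a Pearson r of 0.65. Of 584 such regions called higher, the neighbour was called higher in 333 and lower in 3. Of 185 called lower, it was called lower in 88 and higher in 1. Region and neighbour share libraries, depth and often the same stretch of open chromatin.

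**Figure D3:**
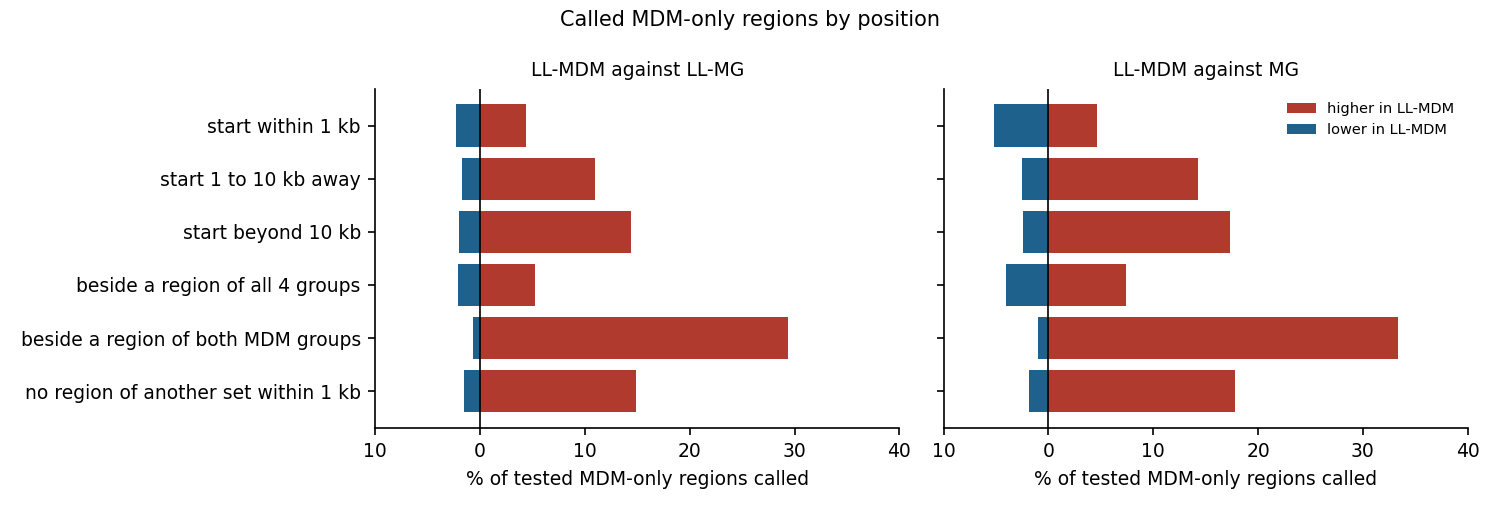
Percentage of tested MDM-only regions called higher (red, right) or lower (blue, left) in LL-MDM against LL-MG (left panel) and against MG (right panel), by distance to the nearest gene start and by the region beside them. The share higher in LL-MDM grew with distance in the left panel, being 4.39% within 1 kb and 14.4% beyond 10 kb. It did so over all regions tested too (4.89% and 13.8%). Beside regions of both MDM groups it was 29.3%, against 28.8% of all regions tested in that position.

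The regions with the highest MDM level over the other libraries are described next, with no test, because the rule used this difference. Zfp366 encodes DC-SCRIPT, a nuclear cofactor of dendritic cells. Its region at chr13:99207233-99207833, 600 bp wide and inside the gene, held 6.20, 4.45 and 4.45 CPM in LL-MDM libraries, 0.452, 0 and 0.363 in LL-MG, 28.9, 29.3 and 33.5 in MDM, and 2.97, 1.37 and 0.732 in MG. A further region at chr13:99308320-99308913, nearest to Ptcd2 on the same chromosome, held 5.32, 3.20 and 3.42 CPM in LL-MDM libraries, 1.36, 1.88 and 1.09 in LL-MG, 32.1, 28.04 and 30.8 in MDM, and 1.85, 2.23 and 0.976 in MG. In both, every MDM library lay several times above the highest of the other 9, and LL-MDM lay above both microglial groups.

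Upb1 encodes beta-ureidopropionase, an enzyme of pyrimidine breakdown. Its region at chr10:75429455-75430004 held 8.86, 6.68 and 6.16 CPM in LL-MDM libraries, 1.81, 2.35 and 2.18 in LL-MG, 36.3, 31.4 and 37.9 in MDM, and 4.08, 3.95 and 3.66 in MG. Pik3r5, the regulatory subunit of phosphoinositide 3-kinase gamma, had a region at chr11:68447178-68447553 with 13.3, 13.2 and 12.3 CPM in LL-MDM libraries, 6.33, 6.11 and 2.90 in LL-MG, 39.2, 37.7 and 45.1 in MDM, and 5.56, 3.43 and 6.10 in MG. Regions at Carmil1, Arhgef10 and Tctn1 shared this order, with MDM means of 27.1, 28.3 and 23.3 CPM and MG means of 1.93, 1.72 and 1.71 CPM. A region 4369 bp from the start of H2-Eb1, an MHC class II beta chain, held 5.32, 9.18 and 7.53 CPM in LL-MDM libraries, 13.6, 6.11 and 8.35 in LL-MG, 34.9, 34.9 and 36.2 in MDM, and 7.41, 3.43 and 3.66 in MG. There LL-MDM overlapped with LL-MG.

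Some of the highest MDM-only regions were shared with all groups. The region at Zfp36, which encodes the mRNA-decay factor tristetraprolin, lay 610 bp from a start and held 35.4, 26.6 and 24.3 CPM in LL-MDM libraries, 33.0, 29.6 and 27.9 in LL-MG, 39.1, 38.1 and 42.0 in MDM, and 31.5, 31.4 and 32.0 in MG. Near the kinase gene Pim1 the MDM mean was 36.5 CPM and the MG mean 25.3 CPM. The region near the survival gene Mcl1 was less alike, with means of 25.7 CPM in LL-MDM, 12.3 in LL-MG, 50.7 in MDM and 11.4 in MG. Every MDM library lay above every other library at Mcl1. A 34-bp region at Cdk14, a cyclin-dependent kinase gene, held 0, 0.556 and 0 CPM in LL-MDM libraries, 5.88, 5.64 and 2.18 in LL-MG, 0.438, 0.489 and 0.513 in MDM, and 2.97, 1.54 and 1.22 in MG. All 3 MDM libraries were below all 6 microglial libraries there, though the region carries an MDM call alone. The regions named for Tuba1a, Ptprm and Insr had the next lowest MDM levels against another group, with MDM means of 0.654, 0.706 and 0.854 CPM. Those named for Tuba1a and Insr lay 23648 bp and 33922 bp outside the genes.

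Among the MDM-only regions that separated LL-MDM from LL-MG by the test, the smallest p belonged to Cytip, which encodes a cytohesin-binding protein that regulates adhesion of leukocytes. Its region at chr2:58129933-58130365 held 15.1, 11.4 and 6.16 CPM in LL-MDM libraries, 0.452, 0.470 and 0.726 in LL-MG, 27.6, 25.3 and 22.4 in MDM, and 0.741, 1.37 and 1.22 in MG. LL-MDM did not overlap with either microglial group. The log2 fold change was 4.14 ± 0.48 against LL-MG (edgeR adjusted p = 1.2e-07) and 3.10 ± 0.35 against MG (edgeR adjusted p = 6.5e-08), and the LL-MG libraries held 1, 1 and 2 counts.

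Iqgap1, a scaffold of the actin cytoskeleton, had a region at chr7:80774961-80775166 with 9.75, 11.4 and 12.7 CPM in LL-MDM libraries, 0.905, 1.41 and 2.18 in LL-MG, 14.7, 13.3 and 13.7 in MDM, and 2.22, 2.74 and 2.68 in MG. LL-MDM was near MDM and far above LL-MG, by 2.88 ± 0.35 (edgeR adjusted p = 2.7e-07). LL-MDM likewise lay above LL-MG without overlap at Plbd1, a phospholipase B-like gene (2.99 ± 0.39), at Atp2b4, a plasma membrane calcium pump (3.02 ± 0.39), and at Erbb3, a receptor tyrosine kinase (3.64 ± 0.49). The region near Cd2bp2 at chr7:127184848-127185272 held 6.20, 7.09 and 4.79 CPM in LL-MDM, no count in any LL-MG library, 14.2, 13.8 and 11.5 CPM in MDM, and 0.741, 1.54 and 1.95 CPM in MG. Against a floor of 3 counts over the LL-MG group, the LL-MDM mean was at least 14.3-fold higher.

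Against MG, Rin2, which encodes an activator of the endosomal GTPase Rab5, had a region with a higher mean in LL-MDM than in MDM. Its region at chr2:145806343-145806542 held 4.43, 6.82 and 9.25 CPM in LL-MDM libraries, 0.905, 0 and 0.363 in LL-MG, 3.94, 3.64 and 5.13 in MDM, and 0.741, 0.686 and 0 in MG. Eepd1, known as a target of the liver X receptor in macrophages, held 7.97, 6.95 and 7.53 CPM in LL-MDM libraries, 0.905, 1.41 and 1.45 in LL-MG, 3.87, 3.48 and 4.10 in MDM, and 1.48, 0.686 and 0.976 in MG. At Eepd1 every LL-MDM library lay above every other library, and LL-MDM exceeded MG by 2.90 ± 0.38 (edgeR adjusted p = 7.9e-07). Art2b, an ADP-ribosyltransferase gene, and Ado, a cysteamine dioxygenase gene, were the nearest genes of further regions higher in LL-MDM than in MG, by 3.56 ± 0.44 and 2.59 ± 0.34. These regions lay 26226 bp and 46428 bp outside the genes.

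Fewer MDM-only regions were lower in LL-MDM. Ccl3 encodes a macrophage chemokine. Its region at chr11:83648384-83648501 held 2.66, 4.03 and 4.11 CPM in LL-MDM libraries, 11.3, 8.93 and 12.7 in LL-MG, 3.798, 4.35 and 3.25 in MDM, and 11.9, 18.7 and 11.5 in MG. Both monocyte-derived groups lay below both microglial groups, and LL-MDM fell by 1.51 ± 0.30 against LL-MG (edgeR adjusted p = 0.00040) and by 1.88 ± 0.28 against MG (edgeR adjusted p = 5.7e-06). Csf1, the growth factor that sustains macrophages, held 0, 0.556 and 0.685 CPM in LL-MDM libraries, 4.52, 2.82 and 4.72 in LL-MG, 0.803, 0.978 and 1.03 in MDM, and 4.08, 7.20 and 4.39 in MG at a region 449 bp outside the gene. The Ccl3 difference from LL-MG was -0.89 at equal totals of the smallest library, where the call was lost (edgeR adjusted p = 0.196). At Csf1 too the monocyte-derived libraries did not overlap with the microglial ones.

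Frmd4a, a scaffold gene of cell polarity, held 0.886, 2.36 and 1.37 CPM in LL-MDM libraries, 8.14, 11.3 and 8.71 in LL-MG, 4.16, 3.75 and 4.10 in MDM, and 9.64, 3.60 and 6.83 in MG. LL-MDM was the lowest group, at -2.28 ± 0.39 on the log2 scale against LL-MG (edgeR adjusted p = 4.9e-05). A region in Bach2, which encodes a repressor of lymphoid and myeloid genes, was lower in LL-MDM than in LL-MG, with a log2 fold change of -1.89 ± 0.37. Regions in Git2, Cdk14 and Spire1, and one 34268 bp outside Arnt2, were lower with log2 fold changes of -3.22 to -2.09. Against MG, a region at Mylip, whose product marks the LDL receptor for degradation, was lower in LL-MDM at -1.98 ± 0.40, and one at the antiproliferative gene Btg2 at -1.36 ± 0.25, a call lost at equal totals (edgeR adjusted p = 0.081). Regions at Il3ra, Ube2l3, Avil and Medag were lower than in MG, with log2 fold changes of -2.82 to -2.29. MG replicates 2 and 3, which also hold more counts at basophil and mast cell genes, were the highest libraries at Il3ra (5.19, 12.2 and 9.51 CPM in MG), Ube2l3 (1.85, 6.00 and 5.85) and Avil (2.22, 4.46 and 4.39). Without both, the edgeR adjusted p was 0.056 at Il3ra, 0.148 at Avil and 0.023 at Medag, and Ube2l3 was under the filter.

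**Figure D4:**
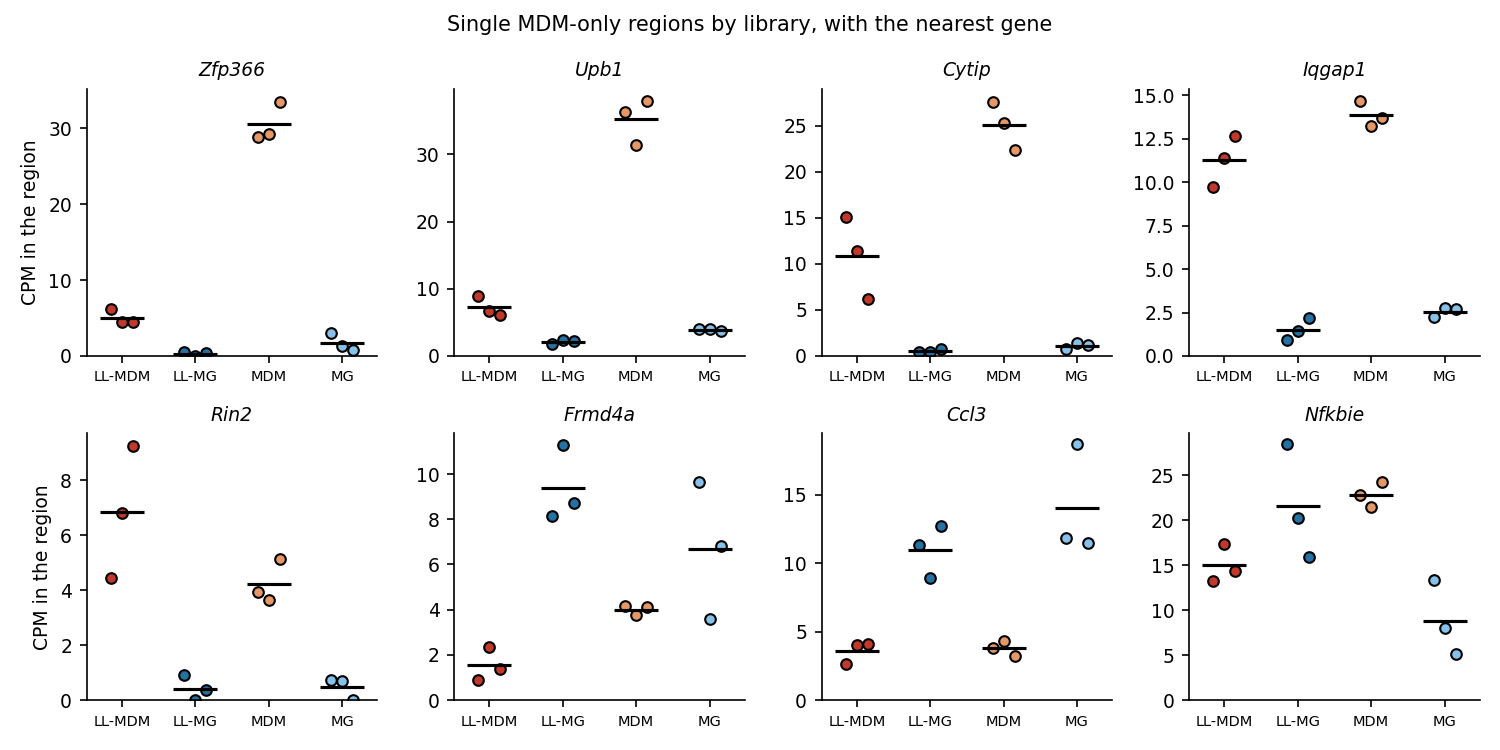
CPM of 8 single MDM-only regions in each of the 12 libraries, named by their gene; points are libraries and lines group means, and each panel has its own axis from 0. Zfp366 and Upb1 are highest in MDM at about 29 to 38 CPM, Cytip and Iqgap1 are high in both monocyte-derived groups, Frmd4a is lowest in LL-MDM, and Ccl3 is low in LL-MDM and MDM.

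All 8 regions named between LL-MG and MG lost their call without MG replicates 2 and 3 (edgeR adjusted p = 0.064 to 0.786), when 1 MG library was left. Nfkbie encodes the NF-kB inhibitor I-kappa-B epsilon. Its region held 28.5, 20.2 and 16.0 CPM in LL-MG, against 13.3, 8.06 and 5.12 CPM in MG, a log2 fold change of 1.34 ± 0.25 (edgeR adjusted p = 0.0019). Regions at Ccrl2, an atypical chemokine receptor gene, and Pdlim4, and one 12838 bp outside Myo10, were also higher in LL-MG, by 1.27 to 1.83. At Myo10 the LL-MG libraries held 13.6, 6.58 and 9.44 CPM, against 3.34, 3.09 and 3.17 CPM in MG, where the libraries lay close together. Hdc, the histamine-forming enzyme of mast cells and basophils, held 1.36, 1.41 and 1.81 CPM in LL-MG, against 2.97, 14.6 and 9.76 CPM in MG. MG replicates 2 and 3 were the highest of all 12 libraries at that region. Slc34a3 held no count in LL-MG, against 2.59, 8.58 and 3.17 CPM in MG, at least 11.3-fold lower in LL-MG on the floor of 3 counts over the group. At a second Cytip region, 1844 bp from a start, LL-MG likewise held no count, against 1.11, 4.29 and 3.41 CPM in MG, at least 6.95-fold lower. A region in Dym was lower in LL-MG, with 2, 0 and 1 counts there and 2.59, 9.61 and 5.12 CPM in MG.

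Grouped by gene, MDM-only regions fell at 11705 of the 16300 protein-coding genes that had any region within the gene or 5 kb of it. For 4509 of these genes there was 1 such region, for 400 there were 10 or more, and for 703 genes all regions were MDM-only. Long genes headed the count. Foxp1, a forkhead repressor gene active in monocytes, had 57 MDM-only regions among its 117 regions, or 9.38 per 100 kb of gene and flanks. Their summed level was 84.2, 99.2 and 102 CPM in LL-MDM libraries, 52.5, 55.9 and 63.9 in LL-MG, 195, 170 and 146.5 in MDM, and 59.7, 81.3 and 61.2 in MG. Bach2 had 31 (8.67 per 100 kb), Runx2 28 (8.52 per 100 kb), Arhgap26 34 (4.33 per 100 kb) and Pde4d 39 (2.97 per 100 kb). MDM-only regions were 48.7% of the regions at Foxp1, 38.3% at Bach2, 53.8% at Runx2, 38.6% at Arhgap26 and 41.5% at Pde4d. Over the whole series the share was 37.8%, so Bach2, Arhgap26 and Pde4d lay near it. Of the MDM-only regions 29279 were assigned to a gene and 3353 of them to several, so one region can count for neighbours such as the MHC class II genes.

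The gene lists were read by counts of calls, and no list was tested as a list. For LL-MDM against LL-MG, 11.2% of all regions tested were called higher and 10.3% lower. The tested MDM-only regions as a whole had 11.5% higher and 2.02% lower. Against MG the shares were 14% and 12.9% for all regions, and 13.9% and 3.02% for MDM-only regions. A list with few or no regions called lower thus shared this trait with MDM-only regions as a whole. The MDM level over the members of a list is what the rule used, so sums over all regions of the list stand beside it. MHC class II and antigen presentation had 56 MDM-only regions among 134, at all 16 genes, and 50 were tested. LL-MDM was higher than LL-MG at 12 and lower at none, and higher than MG at 15 and lower at 2. The median log2 fold change was 0.59 against LL-MG and 0.79 against MG. Summed over the list, MDM-only regions held 248, 219 and 192 CPM in LL-MDM libraries, 166, 171 and 166 in LL-MG, 541, 515 and 519 in MDM, and 197, 173 and 146 in MG. MDM stood more than 2 times above every other library, and LL-MDM overlapped with MG. Over all 134 regions the sums were 1509.7 to 1660.4 CPM in LL-MDM, 1425 to 1485 in LL-MG, 2562 to 2813 in MDM and 1367 to 1510.2 in MG. Ciita, the master regulator of MHC class II, had 7 members with 23.9, 18.92 and 14.7 CPM in LL-MDM libraries, 7.69, 8.93 and 9.80 in LL-MG, 49.9, 44.1 and 48.5 in MDM, and 11.9, 10.5 and 10.5 in MG. H2-Eb1 had 5, with 16.1 to 19.5 CPM in LL-MDM, 7.99 to 15.8 in LL-MG, 97.5 to 101.7 in MDM and 8.05 to 14.1 in MG.

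Dendritic cell genes had 59 MDM-only regions among 134, with 32 tested. LL-MDM was higher than LL-MG at 3 (9.38%) and lower at 2 (6.25%), with 11.2% and 10.3% over all regions tested, and higher than MG at 5 and lower at 1. MDM was called higher than MG at 24, in the contrast the rule used. The summed level was 125 to 130 CPM in LL-MDM, 107 to 132 in LL-MG, 239 to 289 in MDM and 88.8 to 122 in MG. Over all 134 regions of the list it was 1479.9 to 1521 CPM in LL-MDM, 1561 to 1679.8 in LL-MG, 1757 to 1875 in MDM and 1429 to 1643 in MG. Flt3, the growth factor receptor of dendritic cell precursors, had 7 members with 11.5 to 15.1 CPM in LL-MDM, 6.90 to 12.7 in LL-MG, 30.9 to 36.4 in MDM and 8.05 to 11.5 in MG. At Ccr7, the receptor that guides migrating dendritic cells, the 3 members held 7.09 to 8.62 CPM in LL-MDM, 6.53 to 8.46 in LL-MG, 28.4 to 33.5 in MDM and 2.68 to 4.08 in MG. Zbtb46, a transcription factor of conventional dendritic cells, had 11 members among 25 regions, yet over all 25 it held 223 to 237 CPM in LL-MDM, 259 to 289 in LL-MG, 265 to 304 in MDM and 274 to 341 in MG.

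The monocyte-derived macrophage identity list had 47 members among 124 regions. Of 29 tested, 9 (31.0%) were higher in LL-MDM than in LL-MG and none lower, and 9 were higher than in MG and 1 lower. The summed level was 128, 151 and 143 CPM in LL-MDM libraries, 69.2, 74.8 and 75.1 in LL-MG, 198, 184 and 169 in MDM, and 73.0 to 92.3 in MG, with no overlap between LL-MDM and either microglial group. Over all regions of the list the sums were 1209.5 to 1280.3 CPM in LL-MDM, 750.5 to 812 in LL-MG, 1205 to 1277 in MDM and 701 to 962 in MG, so LL-MDM and MDM overlapped. Ahr, the aryl hydrocarbon receptor, had 5 members among 6 regions, and Cd44, a hyaluronan receptor, 8 among 22. The microglia identity list had 43 members among 160 regions (26.9%). Of 31 tested, LL-MDM was higher than LL-MG at 1 and lower at 1, and likewise against MG. Its summed level was 88.6 to 118 CPM in LL-MDM, 141 to 151 in LL-MG, 144 to 153 in MDM and 120 to 141 in MG, so that over these members MDM overlapped with LL-MG and LL-MDM was lowest. Over all 160 regions the order was another, with 1496 to 1542 CPM in LL-MDM, 1982 to 2036 in LL-MG, 1303 to 1415 in MDM and 1688 to 2013 in MG, so MDM was lowest.

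Immunosuppression genes had 46 members among 151 regions. Of 27 tested, 8 (29.6%) were higher in LL-MDM than in LL-MG, against 11.2% of all regions tested. In LL-MDM against MG, 9 (33.3%) were higher, against 14% of all regions tested. None was lower in either, but MDM-only regions as a whole were seldom lower (2.02% and 3.02%). Pdcd1lg2, which encodes the PD-1 ligand PD-L2, supplied 15 of the members, and 6 of the 8 calls against LL-MG. Its members held 34.6, 43.4 and 43.5 CPM in LL-MDM libraries, 16.3, 19.7 and 18.5 in LL-MG, 80.6, 78.7 and 81.4 in MDM, and 19.6, 25.2 and 17.3 in MG. Macrophage transcription factors had 125 members among 336 regions, with 87 tested. LL-MDM was higher than LL-MG at 18 (20.7%) and lower at none, and higher than MG at 15 (17.2%) and lower at 4 (4.60%). Runx1, a blood lineage factor, had 20 of them, with 54.1 to 62.0 CPM in LL-MDM, 37.1 to 41.0 in LL-MG, 102 to 117 in MDM and 41.9 to 79.6 in MG.

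The lipid list, for uptake, storage and efflux, had 78 members among 260 regions, with 39 tested. LL-MDM was higher than LL-MG at 3 (7.69%) and lower at 1 (2.56%), against 11.2% and 10.3% of all regions tested. It was higher than MG at 9 (23.1%) and lower at 1 (2.56%), against 14% and 12.9% of all regions tested. Abca1, which exports cholesterol, had 8 members, and all 4 that were tested were higher in LL-MDM than in MG. All 8 members together held 23.0, 34.9 and 35.3 CPM in LL-MDM, 19 to 20.2 in LL-MG, 19.9, 20.6 and 16.6 in MDM, and 15.6, 9.09 and 12.9 in MG, so LL-MDM rather than MDM was the highest group there. Over the whole list the sums were 236 to 244 CPM in LL-MDM, 193 to 200 in LL-MG, 255 to 266 in MDM and 162 to 182 in MG. Over all 260 regions they were 3793 to 3858 CPM in LL-MDM, 3392 to 3655 in LL-MG, 3085 to 3385 in MDM and 3273 to 3343 in MG, with LL-MDM above the other 9 libraries.

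**Figure D5:**
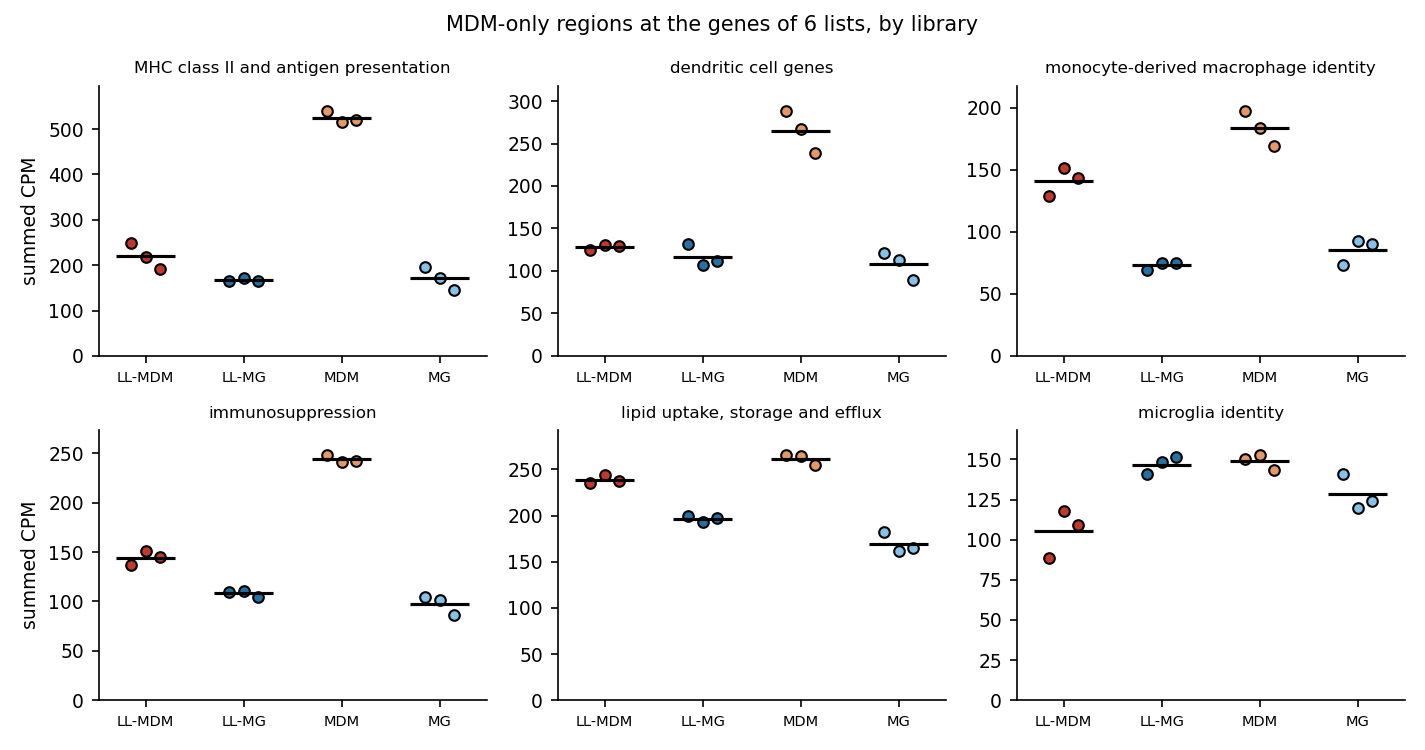
Summed CPM of the MDM-only regions at the genes of 6 lists in each of the 12 libraries; points are libraries and lines group means, and each panel has its own axis from 0. The members were chosen by their MDM call. MDM stands above the rest for MHC class II (515 to 541 CPM) and dendritic cell genes, LL-MDM lies between MDM and the microglia for the monocyte-derived list, and LL-MDM is lowest for the microglia list (88.6 to 118 CPM).

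Adhesion and migration genes had 70 members among 201 regions, with 42 tested. LL-MDM was higher at 9 (21.4%) and lower at 1 (2.38%) against LL-MG, and likewise against MG. Over all regions tested 11.2% were higher and 10.3% lower against LL-MG, and 14% and 12.9% against MG. Cytokines and NF-kB targets had 41 among 133, with 37 tested: against LL-MG 2 were higher and 3 lower, and against MG 8 higher and 3 lower. Chemokines and their receptors had 26 among 99, with 16 tested, of which LL-MDM was higher than LL-MG at none and lower at 1, the Ccl3 region described above, and higher than MG at 3 and lower at 2. Matrix genes and proteases had 51 among 150, with 24 tested, 4 higher and 1 lower against LL-MG, and 4 higher and none lower against MG. Interferon response genes had 25 among 80, with 10 tested and 1 call, higher than LL-MG. Proliferation genes had 16 among 48, with 9 tested, 2 higher and 1 lower against LL-MG, and 1 higher against MG.

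Genes of other cell types that a sort could carry over were read beside these lists. B and plasma cell genes had 23 members among 46 regions, with 42.5 to 43.0 CPM in LL-MDM, 32.1 to 39.6 in LL-MG, 62.0 to 72.0 in MDM and 37.3 to 46.8 in MG. Over all 46 regions they held 204 to 217 CPM in LL-MDM, 212 to 219.6 in LL-MG, 212 to 215 in MDM and 223 to 233 in MG, so MDM was not above the other groups. T and NK cell genes had 29 among 74, with 76.9 to 85.4 CPM in MDM, against 41.2 to 59.7 in MG. Over all 74 the sums were 413 to 434 CPM in MDM and 375, 603 and 449 in MG. Pax5, which defines B cells, had 8 members, with 6.68 to 8.86 CPM in LL-MDM, 5.81 to 8.60 in LL-MG, 16.2 to 23.8 in MDM and 6.30 to 7.03 in MG. Basophil and mast cell genes had 18 among 50, with 27.5, 21.0 and 24.0 CPM in LL-MDM libraries, 11.8, 13.6 and 11.2 in LL-MG, 58.4, 58.0 and 57.4 in MDM, and 18.91, 57.6 and 35.6 in MG. Of these, 12 lay at Kit. Over these members MDM was above LL-MDM, LL-MG and MG replicates 1 and 3, and MG replicate 2 lay within the MDM range. Over all 50 regions of the list MG replicates 2 and 3 were highest, with 112 to 133 CPM in LL-MDM, 95.0 to 117 in LL-MG, 179 to 189.5 in MDM, and 145, 681 and 370.5 in MG.

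Neutrophil genes had 8 members among 34, with 13.7 to 20.1 CPM in MDM, against 11.9 to 23.3 in MG, and over all 34 they held 228 to 251 CPM in MDM, against 203 to 290.4 in MG. Endothelial and pericyte genes had 36 among 86, 10 of them at Erg. Of 19 tested, 6 (31.6%) were higher in LL-MDM than in LL-MG, against 11.2% of all regions tested. Genes of the oligodendrocyte lineage and tumour cells had 31 among 73, with 56.5 to 65.8 CPM in LL-MDM, 45.2 to 54.1 in LL-MG, 101 to 111 in MDM and 47.3 to 58.2 in MG, and 12 of the members lay at Mbp, a myelin protein gene that shares its locus with a transcript of blood cells. Over all 73 regions the sums were 338 to 373 CPM in LL-MDM, 403 to 437 in LL-MG, 397 to 409.9 in MDM and 380.5 to 418 in MG, so MDM lay within the range of the microglial groups. Olig2, the defining gene of that lineage, had 3 regions, all members, with 5.54 to 6.72 CPM in MDM, against 1.54 to 5.19 in MG. Astrocyte genes had 23 among 58, neuronal genes 16 among 41 and genes of border-associated macrophages 21 among 65, the last with 39.1 to 43.2 CPM in MDM, against 15.1 to 23.5 in MG, and over all 65 regions 249 to 262 CPM in MDM, against 214 to 242 in MG. The part of such cells in the MDM-only regions was not tested.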

How the data were processed

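Read counts per region were deposited by the authors as 1 table of 12 ATAC-seq libraries, raw and not normalised, from the values. The submitters' processing notes name the build mm10 and, in no stated order, deepTools 3.5.1, Picard 2.12.0, BWA 0.7.17-r1188 and SAMtools 1.10. No source used here names the peak caller or the rule that merged calls into regions. Per the labels' protocols, nuclei of sorted cells were tagmented with Tn5 and amplified with a first PCR of 9 cycles. Reads carry no molecular identifiers that the labels mention. The floors cover counting error only, while the SE values also take in the spread between libraries that edgeR estimated.

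Each column was tied to 1 sample by its description, and 0 columns were left without a sample. The groups of 3 libraries each were compared in 1 edgeR fit over all 4 groups, with no covariate: filterByExpr, TMM, robust quasi-likelihood test, and Benjamini-Hochberg adjustment over 77737 regions. The tools were R 4.3.3, edgeR 4.0.16, limma 3.58.1 (loess offsets), DESeq2 1.42.0, Python 3.11.15, pandas 2.3.3, NumPy 2.4.6 and matplotlib 3.10.9. The fit was tested on simulated data. No pair of libraries of a group agreed within sampling noise (chi-square per degree of freedom of 1.12 to 5.84). Total counts ran from 1162969 to 18938222 per library.

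A gene held a region in its span or within 5 kb, and the nearest gene within 50 kb named other regions, from RefSeq GRCm38.p6, which numbers chromosomes as mm10 does. Gene starts on chromosome 18 were not used here. Regions were named by a rule, 1 per gene among tested members: the highest MDM means, the smallest p per direction among regions with no overlap between groups and a log2 fold change of at least 1, the highest and lowest MDM against the other libraries, and the promoters of list genes. Named genes are those with the most members, over all genes and per list. The members and lists were chosen with earlier results of these data known. Alternatives were other scalings, no filter, thinning, DESeq2, fits of 2 groups, groups from titles and leaving out libraries.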

Additional observations from a re-analysis of the deposited data

How the results depend on the processing

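Other scalings left most counts of called MDM-only regions within 1.5 times. The exceptions were LL-MDM against MG, lower, at 316 with total counts, LL-MG against MG, higher, at 318 with total counts and 131 with loess offsets, and MDM against MG, lower, at 553 with TMM on regions of all 4 groups. The cause was not tested here or below. Counts follow as higher and lower. Thinned to the smallest total, LL-MDM against LL-MG had 139 and 21, LL-MDM against MG 123 and 14, LL-MG against MG 13 and 17, LL-MDM against MDM 6 and 421, and MDM against MG 645 and 24. DESeq2 gave 982 and 158, 1361 and 173, 86 and 152, 86 and 3546, and 6461 and 354 in that order. Fits of only the groups compared gave 574 and 278, 817 and 120, 20 and 23, 817 and 8783, and 10971 and 780. With no filter, which moved 6 of the 10 counts by more than 1.5 times, there were 2566 and 448, 3344 and 821, 249 and 803, 401 and 8502, and 15716 and 1418.

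With groups from the sample titles the counts were 0 and 0, 37 and 1282, 44 and 1253, 82 and 2702, and 0 and 0. Under the titles edgeR called no region between LL-MDM and LL-MG, where 266 had an unadjusted p under 0.05, or between MDM and MG, where 29 did. Of 44 named region results, 19 were counted as losing their call and 25 as changing sign under the titles. A change of sign does not mean a call in reverse. Since no region was called between LL-MDM and LL-MG, the sign changes listed for that comparison are not calls. The log2 fold changes that changed sign were -0.14 at Cytip, 0.47 at Frmd4a, 0.22 at Cdk14, 0.24 at Git2 and -0.53 at Itgb7 for LL-MDM against LL-MG. For LL-MDM against MG they were -4.16 at Cytip, -3.10 at Atp2b4, -2.87 at Plbd1, -2.465 at Iqgap1, -3.53 at H2-DMb2, 1.44 at Ccl3, 2.23 at Csf1, -3.56 at Art2b, -4.51 at Rin2, -2.19 at Eepd1, -2.96 at Ado, 0.75 at Il3ra, 0.76 at Btg2, 0.98 at Ube2l3, 1.37 at Avil, 1.39 at Medag and 1.67 at Mylip. For LL-MG against MG they were -0.012 at Nfkbie, 0.28 at Slc34a3 and 0.87 at Hdc.

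Leaving out 1 replicate at a time gave 911 to 1882 and 114 to 277 for LL-MDM against LL-MG, 958 to 3374 and 150 to 991 for LL-MDM against MG, and 41 to 826 and 81 to 1344 for LL-MG against MG. It gave 66 to 253 and 2923 to 6003 for LL-MDM against MDM, and 5981 to 10988 and 338 to 1199 for MDM against MG. Without MG replicates 2 and 3, an alternative chosen after seeing the data, the counts were 974 and 211 for LL-MDM against MG, 1 and 1 for LL-MG against MG, and 5863 and 367 for MDM against MG, and 13 of 26 named region results lost their call. Of 18 named region results that could be tested after thinning, Ccl3 against LL-MG and Btg2 against MG lost theirs. The promoter regions of H2-DMb2, H2-Oa, Itgb7 and Kit each lost their call without some single libraries, and H2-Oa also with DESeq2. No other named region result lost its call under another scaling, without the filter, in fits of only the groups compared, with DESeq2 or without 1 library, where it could be tested. Fits of only the groups compared could test 32 of the 44 named region results. The rest passed the filter with all 4 groups but not with the groups compared alone. The share of MDM-only regions with a count moved with thinning, to 74.4% in LL-MDM, 65.8% in LL-MG, 82.9% in MDM and 64.9% in MG. No paired analysis was run, because no label states which columns share an animal or batch. The numbers in the column names run through the 4 groups in turn. A fit that takes each such run as a block was not done. Regions named by an MDM consensus alone and motifs in the central bases of each region were not examined, as no member is named by consensus and no genome was used.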
